A study of Mus musculus with 12 samples.

Results

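The MidK2 culture was compared between day 18 and day 22 of reprogramming, by the share of X-linked transcripts carrying each allele. MidK2 cells were fibroblasts reprogrammed with SeVdp(fKOSMaB), a Sendai virus vector, in the presence of 30 nM Shield1, a compound whose binding protects a destabilising domain, and the protein joined to it, from breakdown. The comparison used single-base variants covered by at least 20 reads in the day 18 table and in the day 22 table, grouped by the gene the tables name. It held 2540 sites, of which 2402 had a gene name, in 302 genes. In the whole series of 12 libraries, 432 genes had such a site in some library. MEF2, mouse embryonic fibroblasts at day 0 without vector or agent, came from the same set of tables and was used for description, as were the MidK2 libraries of days 29 and 36. Each day is 1 library of bulk poly(A) RNA. Strain, parental origin of either X chromosome and number of clones are not given in the sources used.

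In female mammals, 1 of the X chromosomes of a cell is silenced early in development through the noncoding RNA Xist, and the silent copy is kept silent through cell division. Reprogramming to pluripotency can reactivate it, gene by gene and over days, while a few escape genes are transcribed from both copies throughout. A base that differs between the X chromosomes lets RNA reads be assigned to one allele. The tables list positions at which some reads differ from the reference genome. The share of reads with the reference base is here called the reference share. It follows one allele of a gene only where the position differs between the X chromosomes. At most sites the variant base made up nearly all reads in MEF2, and a rising reference share then means that the allele scarce in fibroblasts was read more often. Sites that were mostly reference also exist, and a gene can hold both kinds. Whether the mostly-reference sites differ between the X chromosomes was not tested. A share summed over both kinds need not be the share of one allele.

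The reads that distinguish the alleles are shown for 6 genes, chosen because 4 were called with a coding site and the other two, Msn and Uba1, rose at many sites. Each line is 29 bases of the coding strand of GENCODE M21 transcripts (build mm10), 5′ to 3′, and the capital is the reference base of the variable position, base 15 counted from the 5′ end.
Rnf128, X:139671773: atgaagcaaattctGtggccgtggatgtt
Maged2, X:150807674: aagtacctggactaTgccagagtacccaa
Timp1, X:20874543: cggatcaggtcctcGtgggctctgaggac
Mpp1, X:75113617: ggtctgctcagtcaCaatccagagaagtt
Msn, X:96163751: aaggctcagcaagaGctggaagagcagac
Uba1, X:20682471: aacgatgaaagcggCgaggacgtcgaggt
The variant reads carried G15A in Rnf128, T15C in Maged2, G15A in Timp1, C15G in Mpp1, G15A in Msn and C15T in Uba1. At the base shown, reference reads went from 0 of 21 to 8 of 22 in Rnf128 and from 1 of 37 to 20 of 32 in Maged2. They went from 17 of 102 to 54 of 143 in Timp1 and from 3 of 47 to 13 of 45 in Mpp1. In Msn they went from 11 of 131 to 50 of 213, and in Uba1 from 31 of 481 to 101 of 524. In all 6 genes the reference base was in the minority at day 18 and took a larger share at day 22, and in Maged2 it became the majority.

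The day 18 table listed 3185 usable sites with 211941 covering reads, and the day 22 table listed 3525 with 232552. The shared sites carried 191103 reads at day 18 and 202249 at day 22, a ratio of 1.06, and coverage ratios called scaled below are divided by it. The total number of reads per library is not in the tables. Of the shared sites, 942 lay in coding sequence, 1319 in 3′ UTRs, 54 in 5′ UTRs, 36 in noncoding exons, 37 in introns and 152 outside annotated genes. Among X-linked fibroblast markers, 5 of 7 were listed in MEF2 and 3 of 7 on each MidK2 day, with summed coverage of 50584 reads in MEF2, 2108 at day 18 and 3882 at day 22. Col4a5, a basement membrane collagen, had 3384 reads in MEF2 and was not listed on either day. Among pluripotency markers, 1 of 6 was listed at day 18 and 2 of 6 at day 22 (314 and 570 reads, nearly all in the homeobox gene Rhox5), with none in MEF2, and Nr0b1 and Dusp9 were listed on neither day. Among trophoblast markers, Esx1 and Cited1 were listed (2702 reads at day 18 and 2467 at day 22), none in MEF2, and Plac1, Rhox6 and Rhox9 were not listed. Of 6 blood and 6 neural markers, 1 each was listed, both only through sites that the tables assign to several genes at once. A gene without a variable base cannot be listed, so these counts are of listed genes, and in bulk RNA fewer cells of a type and less RNA per cell cannot be told apart. The part of a changed cell mixture in the allele shares was not tested.

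The reference share rose over most of the X chromosome. It was higher at day 22 in 245 genes, lower in 39 and equal in 18, with a median difference over the 302 genes of 3.41 percentage points (quartiles 0.941 and 7.16). The median gene share was 3.77% at day 18 and 9.94% at day 22. By site, 1715 of 2540 were higher, 453 lower and 372 equal. A gene was counted as biallelic where the smaller of the allele shares, taken as the median over its sites, reached 10%. By that measure 40 genes (13.2%, Wilson 95% interval 9.88 to 17.5) were biallelic at day 18 and 117 (38.7%, 33.4 to 44.3) at day 22. Of these, 36 were biallelic on both days, 81 at day 22 alone and 4 at day 18 alone. The 4 were Gpc3, a heparan sulfate proteoglycan, Gm21887, and the joined names Gm21986/Med12 and Ccdc22/Foxp3/Gm36995.

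**Figure D1:**
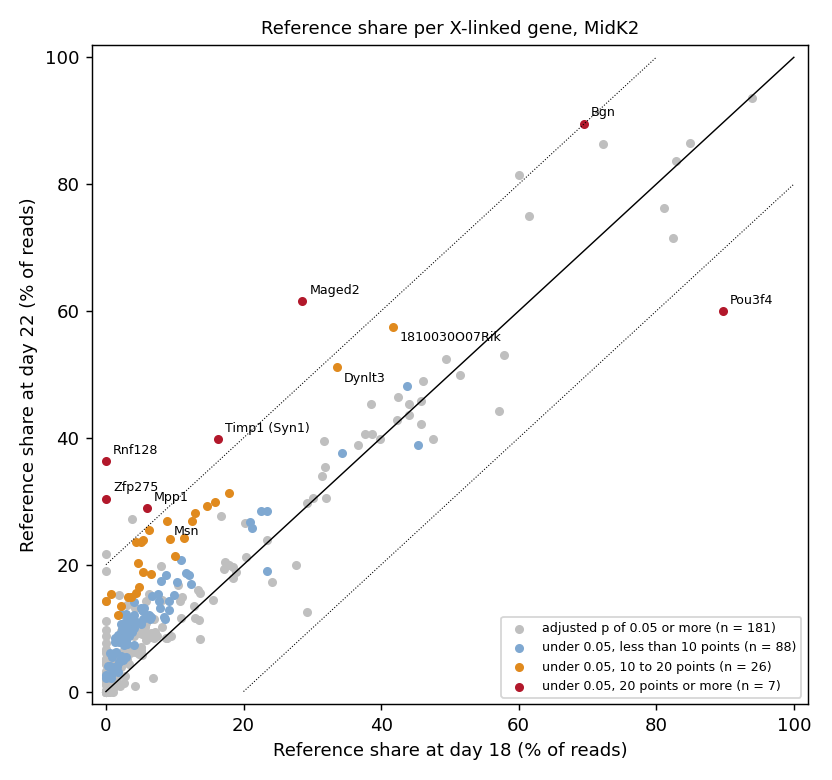
Reference share per gene at day 18 (horizontal axis, % of reads) and day 22 (vertical axis, % of reads) in 302 X-linked genes, with colour giving the test result and the size of the difference. The solid line marks equal shares and the dotted lines 20 points either way; most points lie above the solid line, 6 called genes lie at or above the upper dotted line, and Pou3f4 lies below the lower one.

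The difference per gene was tested by Fisher's exact test (two-sided) on reference and variant reads summed over the shared sites, with Benjamini-Hochberg adjustment over the 302 genes, and its result is printed as the exact adjusted p. The test compares 2 libraries and covers counting error only. There is no replicate of either day, the reads have no molecular identifiers, and 1 read can span several sites, so a difference between the libraries cannot be told apart from one between days. A gene is called below where the adjusted p was under 0.05 and the difference at least 20 points. Of 302 genes, 6 (1.99%) were called higher and 1 (0.331%) lower. With no limit on size, 118 genes (39.1%) were higher at an adjusted p under 0.05 and 3 (0.993%) were lower. At an unadjusted p under 0.05 there were 144 genes in both directions.

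Of the 7 called genes, 6 gained the second allele, in the sense that the scarcer allele took a larger share, and Bgn lost it. Rnf128 encodes a membrane-bound E3 ubiquitin ligase that restrains T cell activation (X:139563316-139673145, plus strand). At its 1 shared coding site the reference allele was read in 0 of 21 reads at day 18, which allows a share of up to 14.3%, and in 8 of 22 at day 22. The share at day 22 was thus 36.4% (Wilson 95% interval 19.7 to 57.0, exact adjusted p = 0.0122 by Fisher's exact test), and coverage was level, at a scaled ratio of 0.990. Over the 9 sites that have at least 10 reads in both tables, the share went from 4.64% of 151 reads to 32.4% of 139, higher at all 9 sites. In MEF2 the site shown above had no reference read.

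Maged2, a MAGE family gene required for salt reabsorption in the fetal kidney (X:150806370-150814345, minus strand), went from 18 reference reads of 63 to 40 of 65. Its share was 28.6% (18.9 to 40.7) at day 18 and 61.5% (49.4 to 72.4) at day 22 (exact adjusted p = 0.00112), and the scaled coverage ratio was 0.975. The rise came from 1 of its 2 coding sites. X:150807674, shown above, went from 2.70% to 62.5%, while X:150806874 was 65.4% at day 18, 60.6% at day 22 and already 51.6% in MEF2. Over 5 sites of at least 10 reads the gene went from 25.2% to 63.6%, with 4 of 5 sites higher.

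Zfp275, a zinc finger gene (X:73342621-73359080), was measured at 1 site in its 3′ UTR (X:73358392). No reference read was among 28 at day 18, which allows a share of up to 10.7%, and 7 of 23 reads carried the reference base at day 22 (30.4%, 15.6 to 50.9, exact adjusted p = 0.00780). Coverage was lower at day 22, at a scaled ratio of 0.776. With 10 sites of at least 10 reads the share went from 0.637% to 19.1%, a difference of 18.5 points, under the limit for a call.

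Timp1, a secreted inhibitor of matrix metalloproteinases (X:20870166-20874735, plus strand), lies inside an intron of the synaptic vesicle gene Syn1, and the tables give its sites both names. Its 5 sites lie in Timp1 exons, 2 of them in the 5′ UTR, 1 in coding sequence and 2 in the 3′ UTR. Reference reads went from 60 of 368 to 196 of 493, and the share from 16.3% (12.9 to 20.4) to 39.8% (35.5 to 44.1), a difference of 23.5 points (17.6 to 29.0, exact adjusted p = 1.02e-12). The share was higher at all 5 sites and had been 0.982% in MEF2. Variant reads were nearly level (308 and 297), so the rise in coverage, at a scaled ratio of 1.27, lay in the reference reads. Whether the tables counted reads by strand is not stated, so reads of Syn1 and Timp1 cannot be told apart; the neural markers Dcx, Syp, Sox3 and Gria3 were not listed.

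Mpp1, a membrane-associated scaffold protein of the erythrocyte cytoskeleton (X:75109733-75131016, minus strand), was measured at 3 coding sites. Its share went from 5.94% (2.75 to 12.4) of 101 reads to 29.0% (21.2 to 38.2) of 107 reads (exact adjusted p = 7.14e-05). The 3 sites read 6.38%, 8.82% and 0% at day 18, and 28.9%, 25% and 34.6% at day 22, and MEF2 had no reference read at any of them. Coverage did not move, at a scaled ratio of 1.0.

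Bgn encodes biglycan, a small proteoglycan of the extracellular matrix (X:73483602-73495933), and was measured at 13 sites in its 3′ UTR. The reference allele already held 69.4% (66.7 to 72.0) of 1178 reads at day 18 and rose to 89.6% (88.4 to 90.6) of 2871 reads at day 22 (difference 20.1 points, 17.3 to 23, exact adjusted p = 3.32e-49). The scarcer allele was here the variant, and its median share over sites fell from 28.8% to 10.6%. The reference share was higher at all 13 sites, which ranged from 51.2% to 77.2% at day 18 and from 87.1% to 93.0% at day 22. In MEF2 the same sites carried 1.15% reference reads. Reference reads went from 818 to 2571 and variant reads from 360 to 300, and the scaled coverage ratio of 2.30 was the highest among the 302 genes. Since Bgn is also a fibroblast marker, the other members of that marker list with shared sites stand beside it. Fhl1 had 338 reads at day 18 and 337 at day 22 over 10 sites, and Timp1 368 and 493 over 5 sites. In MEF2, Bgn had 36622 reads at its 13 sites.

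Pou3f4, a POU-domain transcription factor of the inner ear and brain (X:110814280-110817207), was the 1 gene called lower. At its single 3′ UTR site (X:110817195), 26 of 29 reads were reference at day 18 and 18 of 30 at day 22, so the share went from 89.7% (73.6 to 96.4) to 60% (42.3 to 75.4), with exact adjusted p = 0.0406. The scarcer allele was the variant, with 3 reads at day 18 and 12 at day 22, so Pou3f4 counts among the gains. These variant reads had 3 different start positions on each day, the 12 reads of day 22 having no more of them than the 3 of day 18, and the part of duplicate reads in the call was not tested. The site was not listed with 20 reads in MEF2. Where every gene was reduced to its best-covered site, the adjusted p over the 302 genes was 0.110, and the call was lost.

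**Figure D2:**
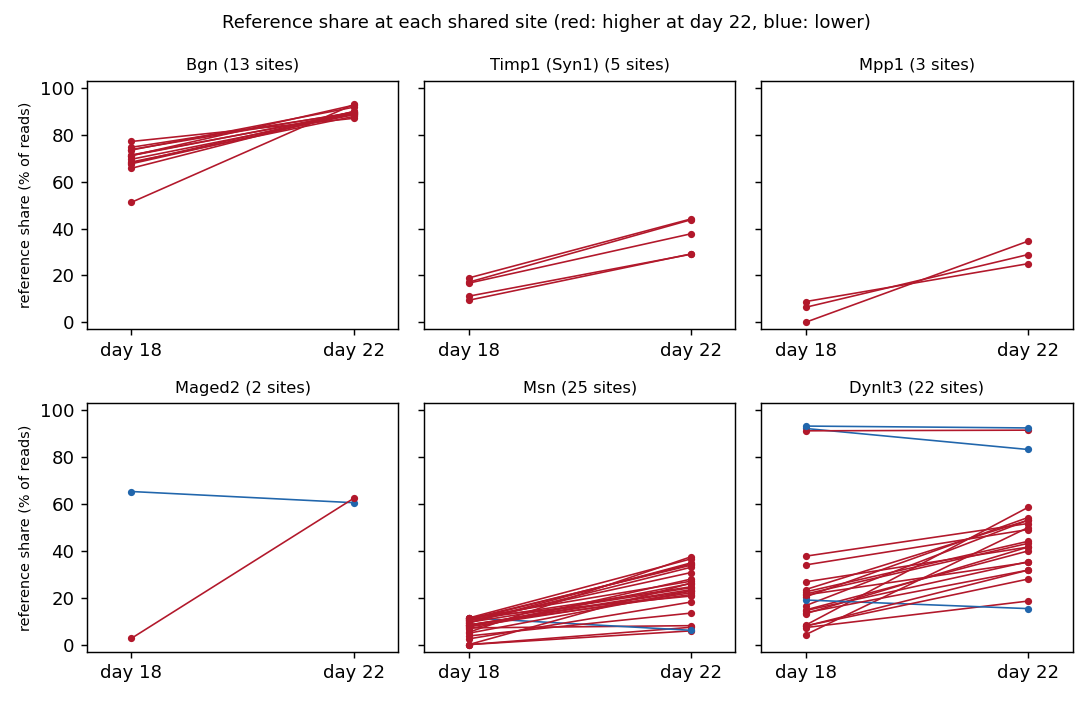
Reference share (% of reads, vertical axis) of every shared site of 6 genes at day 18 and day 22, with 1 line per site, red where the share was higher at day 22 and blue where it was lower. All sites of Bgn, Timp1 and Mpp1 go up; Maged2 rests on 1 of 2 sites, Msn goes up at 24 of 25, and Dynlt3 holds 3 sites near the top that were mostly reference on both days.

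A further 26 genes passed the test with a difference of 10 to 20 points, all of them higher, so that 32 genes (10.6%) rose by at least 10 points; these were picked out after their values were seen. On the fibroblast matrix, adhesion and cytoskeleton list are Msn, Flna, Tmsb4x, Dynlt3, Gpc4 and Lamp2. Msn, encoding moesin, which links actin to the plasma membrane (X:96096042-96168552), went from 238 reference reads of 2682 to 812 of 3013, a share of 8.87% (7.86 to 10) and then 26.9% (25.4 to 28.6), with exact adjusted p = 4.49e-70. Its 25 sites ranged from 0% to 11.6% at day 18 and from 5.88% to 37.5% at day 22. Flna, encoding the actin crosslinker filamin A, went from 15.9% to 29.9% (exact adjusted p = 8.09e-15); over the 7 of its 9 sites that were mostly variant in MEF2, the shares were 4.85% and 23.9%. Tmsb4x, encoding the actin monomer-binding peptide thymosin beta 4, went from 11.3% to 24.2% (exact adjusted p = 2.09e-15), but nearly all of that rested on 1 site (X:167209125) with 1113 and 1111 reads, at 9.16% and 23.7%. Dynlt3, a light chain of the motor dynein, went from 33.5% to 51.1% (exact adjusted p = 3.38e-18), and over its 19 sites mostly variant in MEF2 from 18.0% to 41.1%, where the difference of 23.1 points would meet the limit for a call. Gpc4, a heparan sulfate proteoglycan, went from 9.30% to 24.0% (exact adjusted p = 0.000230).

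Lamp2, a protein of the lysosomal membrane, went from 314 reference reads of 2436 to 721 of 2566, or 12.9% to 28.1% (exact adjusted p = 4.52e-39), and was higher at all 29 sites. Over the 24 of its sites that were mostly variant in MEF2, the shares were 6.67% and 18.2%, a difference of 11.6 points. Renbp, a renin-binding protein with epimerase activity on sugars, went from 6.29% (4.06 to 9.62) of 302 reads to 25.5% (21.8 to 29.7) of 458 reads, higher at all 7 coding sites (exact adjusted p = 2.13e-11). Acot9, a mitochondrial acyl-CoA thioesterase, went from 5.08% to 23.6% (exact adjusted p = 1.90e-07). Slc6a8, the creatine transporter, went from 12.6% to 26.8%, and Prdx4, a peroxiredoxin of the endoplasmic reticulum, from 6.49% to 18.6%. Ocrl, an inositol phosphatase, had 0 of 49 reads at day 18, which allows up to 6.12%, and 6 of 42 at day 22. In all 6 of these genes every shared site was higher at day 22.

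Uba1, the enzyme that activates ubiquitin (X:20658326-20683179), went from 87 reference reads of 1961 to 401 of 2586, or 4.44% (3.61 to 5.44) to 15.5% (14.2 to 17.0), higher at all 15 coding sites (exact adjusted p = 8.36e-34). Rpl36a, a ribosomal protein gene, went from 3.20% to 14.9%, Emd, encoding the inner nuclear membrane protein emerin, from 2.22% to 13.4%, and Rbmx2, an RNA-binding protein gene, from 14.6% to 29.3%. Maged1, a relative of Maged2, went from 4.77% to 16.5% (exact adjusted p = 2.45e-26), and Tspyl2, a nucleosome assembly family gene, from 4.63% to 20.2% (exact adjusted p = 1.72e-15), each higher at every site. The others were 1810030O07Rik (41.7% to 57.5%), Fam50a (17.9% to 31.4%), Wbp5 (10% to 21.4%), Syap1 (5.34% to 18.9%), Haus7 (5.33% to 23.9%), Armcx2 (1.73% to 12.1%), C1galt1c1 (3.65% to 14.9%), Tsr2 (0.667% to 15.4%) and the joined name Fgd1/Tsr2 (4.39% to 23.6%). Just outside the test, 3 genes with 1 site each rose by more than 20 points without passing it. Tceal3 went from 60% to 81.4% (exact adjusted p = 0.0658), Rbm41 from 0% of 24 reads to 21.7% (exact adjusted p = 0.0539), and 1110012L19Rik from 3.85% to 27.3% (exact adjusted p = 0.0829).

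Split by allele, the added reads lay on the reference side. Over all shared sites, reference reads went from 23528 to 33897, a ratio of 1.44, while variant reads went from 167575 to 168352, a ratio of 1.0. Without Bgn the reference ratio was 1.38. Over the 32 genes that rose by at least 10 points, reference reads went from 3057 to 8176 and variant reads from 18135 to 16211. Of the 32, 27 had fewer variant reads at day 22. Among all 302 genes, 124 had more reference reads and fewer variant reads at day 22. Since the 32 genes were picked for a higher reference share, the split is a description. The scaled coverage ratio of the 32 genes had a median of 0.981 and ran from 0.580 in Haus7 to 2.30 in Bgn. A higher reference share was thus found at level, lower and higher coverage.

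**Figure D3:**
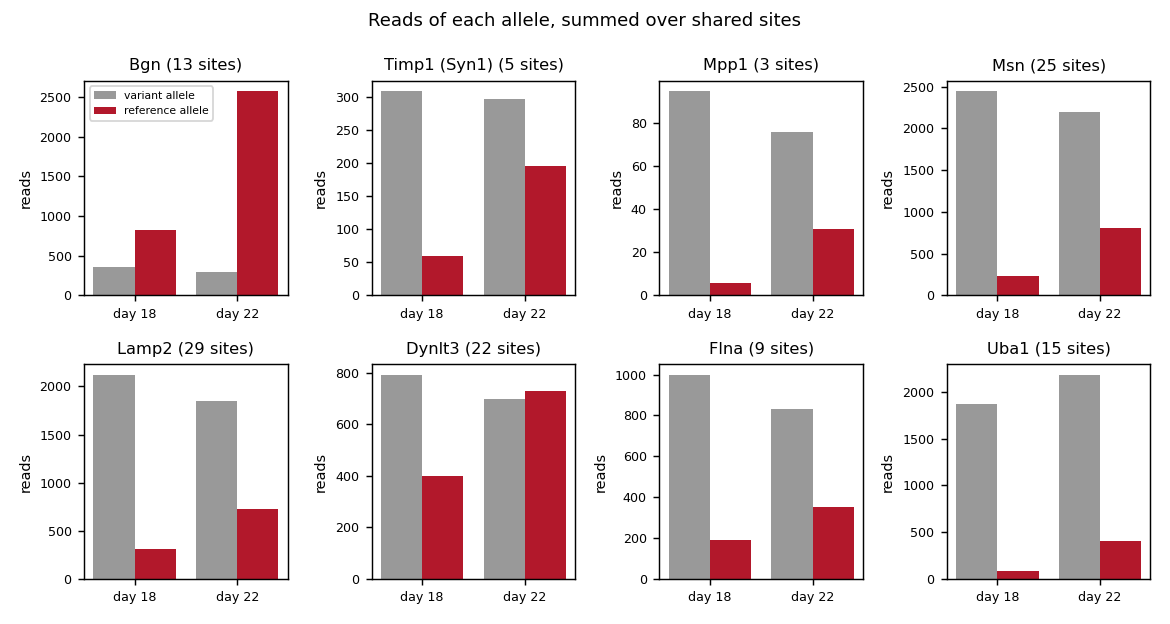
Reads of the variant allele (grey) and the reference allele (red) summed over the shared sites of 8 genes at day 18 and day 22 (vertical axis, reads, with a scale of its own in each panel). The red bars are taller at day 22 in all 8 genes, while the grey bars are lower at day 22 in 7 and higher in Uba1 (1874 and 2185 reads).

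Because sites that were mostly reference blur a summed share, the comparison was repeated at the 1193 sites in 191 genes where MEF2 had at least 20 reads with the variant in the majority. There 962 sites were higher, 139 lower and 92 equal, and reference reads went from 7539 to 16553, a ratio of 2.20 (2.08 without Bgn), against 1.01 for variant reads. The reference allele made up 6.25% of reads at day 18 and 12.7% at day 22. Of the 191 genes, 101 (52.9%) were higher at an adjusted p under 0.05 and 1, the escape gene Eif2s3x, was lower (50.5% to 42.7% over 4 sites, exact adjusted p = 0.0436). Median gene shares were 3.24% and 9.68%, with a median difference of 5.51 points. These sites, called oriented elsewhere, were chosen by MEF2 reads from among the shared sites. They therefore also had to be listed with the variant and at least 20 reads on both days. The p-values at oriented sites are adjusted over the 191 genes.

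Besides Pou3f4, 2 genes had a lower share at an adjusted p under 0.05. Gpc3 went from 45.4% (41.5 to 49.4) of 606 reads to 38.9% (35.4 to 42.5) of 727 (exact adjusted p = 0.0479), yet 6 of its 7 sites were higher and the median site difference was 1.79 points. Its sites run from 0% to 86.5% at day 18, and 2 of its 3 sites at 0% gained most coverage, going from 88 to 168 and from 45 to 109 reads. Esx1, a homeobox gene of the placenta, went from 23.4% (21.7 to 25.2) of 2342 reads to 19.0% (17.4 to 20.7) of 2239 (exact adjusted p = 0.00139). Of its 16 sites, 6 had shares from 31.0% to 90.9% at day 18 and the other 10 had at most 1.08%. Neither gene had a shared site listed with 20 reads in MEF2, so the alleles could not be oriented.

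The 10 genes of highest coverage that were not called had mostly small differences. Gm14681, a pseudogene whose reads may belong to its parent gene, had the highest coverage and stayed at 0.257% and 0.247%. Pcsk1n, an inhibitor of prohormone processing, had 0.213% and 0.399%, and Capn6, a calpain family gene, 1.61% and 2.17%, neither past the test. Rps4x, a ribosomal protein gene, rose from 1.92% of 3118 reads to 4.67% of 5565 (exact adjusted p = 1.84e-10), and the joined name Map3k15/Pdha1 rose from 1.79% to 3.13% (exact adjusted p = 0.00251). Sh3bgrl, a thioredoxin-fold protein gene, rose from 9.19% to 12.8% (exact adjusted p = 3.02e-07), and Ogt, the enzyme that adds N-acetylglucosamine to intracellular proteins, rose from 8.60% to 11.4% (exact adjusted p = 0.00245). Rlim, encoding a ubiquitin ligase that activates Xist, had 18.5% and 17.9% over 60 sites (exact adjusted p = 0.572), but 1.46% and 2.97% over its 27 sites mostly variant in MEF2 (exact adjusted p = 0.00118). Hmgn5, a nucleosome-binding protein gene, had 45.8% on both days, with 16.3% and 16.6% over 7 oriented sites (exact adjusted p = 0.819). Msn was the remaining one. Among these 10, the rises past the test other than that of Msn were of a few points each.

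The gene lists are described by counts beside the 302 genes. Of those, 39.1% rose at an adjusted p under 0.05, and the median difference was 3.41 points. As background for the biallelic counts, 13.2% of the 302 genes were biallelic at day 18 and 38.7% at day 22. List members found only under a joined name, such as Timp1, were counted as not measured. Of 12 names on the escape list 10 were measured, and 1 of them, 1810030O07Rik, rose. The name 2610029G23Rik, counted as not measured, is an older name of Pbdc1, which is among the 10. In MEF2 the share of 1810030O07Rik was 2.38% of 84 reads and that of Shroom4 2.17% of 46, against 44.5% of 1466 in Ddx3x. In value, 5 of the 10 were higher at day 22 and 5 lower, with a median difference of 0.611 points. Most were biallelic on both days (8 and 9 of 10). The RNA helicase gene Ddx3x was 49.4% at day 18 and 52.5% at day 22 (exact adjusted p = 0.0604), the translation factor gene Eif2s3x 57.8% and 53.1% (exact adjusted p = 0.0858), and the histone demethylase gene Kdm5c 37.6% and 40.7% (exact adjusted p = 0.315). Over 14 oriented sites Ddx3x went from 37.6% to 42.8% (exact adjusted p = 0.00500). At the X-inactivation centre, Rlim did not pass the test over all its sites. Xist itself shared 1 site with its antisense partner Tsix and Gm26992, which was 93.9% of 49 reads at day 18 and 93.5% of 31 reads at day 22.

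Of 12 pluripotency and germline genes 2 were measured, and both rose. Tfe3, a transcription factor with a role in pluripotency, went from 7.63% of 2450 reads to 15.4% of 2247 (exact adjusted p = 9.29e-16), and Rhox5, a reproductive homeobox gene, from 4.14% of 314 to 14.1% of 546 (exact adjusted p = 1.17e-05). Of 22 fibroblast matrix, adhesion and cytoskeleton genes 17 were measured. Of these, 10 rose, 1 (Gpc3) fell and 6 did not pass, with a median of 3.64 points. Timp1, called higher under its joined name with Syn1, is on this list but outside the 17. The biallelic count of the 17 went from 5 to 9. Without Bgn, the other 16 had 22087 reads at day 18 and 21981 at day 22 and a median of 3.57 points, so that the coverage of the list without Bgn was level. Of 28 ubiquitously used genes 23 were measured; 15 rose, none fell and 8 did not pass, with a median of 5.43 points, and 0 were biallelic at day 18 and 9 at day 22. Among them Pdha1, a subunit of pyruvate dehydrogenase, went from 0.822% to 2.88% (exact adjusted p = 9.65e-08), Hprt, the purine salvage enzyme, from 7.81% to 13.1% (exact adjusted p = 3.29e-05), and Nono, an RNA-binding nuclear protein gene, from 20.9% to 26.7% (exact adjusted p = 0.000157). Over 15 oriented sites Nono went from 8.76% to 14.7%.

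Of 26 chromatin and transcription genes 21 were measured; 10 rose, none fell and 11 did not pass, with a median of 2.80 points and 5 biallelic at day 18 against 9 at day 22. The deacetylase gene Hdac6 went from 5.56% to 13.2% (exact adjusted p = 1.74e-12), the corepressor gene Bcor from 9.16% to 14.3% (exact adjusted p = 0.000111) and the chromatin remodeller gene Atrx from 12.4% to 17.0% (exact adjusted p = 0.00109). At oriented sites the shares were lower, at 3.21% and 11.1% over 3 sites in Bcor and 2.77% and 8.89% over 18 sites in Atrx. Of 16 ubiquitin pathway genes 11 were measured; 4 rose and 7 did not pass, with a median of 2.03 points. Huwe1, a large E3 ligase, had 8.79% and 8.49% over 23 sites (exact adjusted p = 0.957), and over its 17 sites mostly variant in MEF2 it rose from 2.05% to 5.34% (exact adjusted p = 5.38e-05). Of 7 proton pump and lysosome genes 6 were measured; 4 rose and 2 did not pass, with a median of 6.44 points. Their biallelic count went from 1 to 5, and the pump accessory genes Atp6ap1 and Atp6ap2 went from 23.4% to 28.5% (exact adjusted p = 0.00930) and from 7.65% to 14.4% (exact adjusted p = 0.000802). Over 13 oriented sites Atp6ap1 went from 9.23% to 17.4%. Of 18 names on the list of the Bex, Tceal and Armcx family, mostly small genes that neighbour each other on the X, 12 were measured. Of these, 5 rose and 7 did not pass, with a median of 3.19 points. The list holds Bex3 also under its older name Ngfrap1. Tceal9, named Wbp5 above, was counted as not measured, although Wbp5 rose from 10% to 21.4%. Bex3, a regulator of neurotrophin signalling, rose from 2.24% of 2100 reads to 10.6% of 2256 (exact adjusted p = 2.23e-29), while Bex4 with 1327 and 1679 reads had 0.0754% and 0.298% (exact adjusted p = 0.372) and Bex2 0.169% and 0.297% (exact adjusted p = 0.799).

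**Figure D4:**
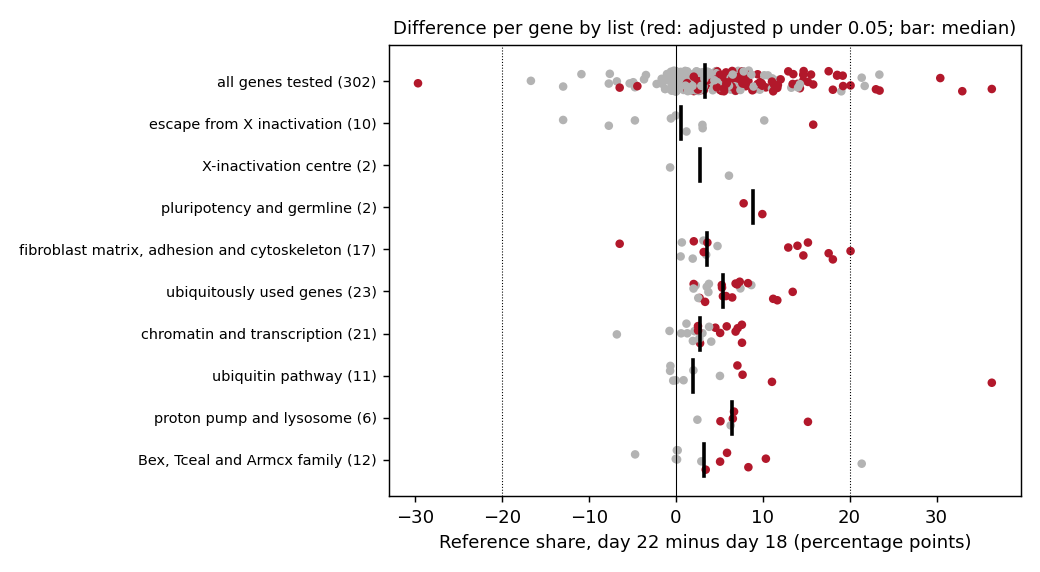
Difference in reference share per gene (day 22 minus day 18, percentage points, horizontal axis) for all 302 genes and for each gene list, with 1 point per gene, red at an adjusted p under 0.05, and a black bar at the median. Medians run from 0.611 points in the escape list to 8.89 in the 2 measured pluripotency and germline genes, and all lists with 6 or more measured genes hold genes on both sides of the test.

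Along the chromosome the rise was not confined to one stretch. In windows of 10 Mb with at least 10 genes, the share of genes that rose at an adjusted p under 0.05 ran from 25% (90 to 100 Mb, 12 genes) to 50% (30 to 40 Mb, 20 genes, and 140 to 150 Mb, 10 genes). The window from 70 to 80 Mb held the most genes, 43, of which 20 rose (46.5%), with the highest median difference of such windows, 6.32 points. It contained 3 of the 7 called genes, Bgn, Mpp1 and Zfp275, as well as Renbp, Flna, Emd, Fam50a, Slc6a8 and Haus7. By place in the gene, sites in coding sequence went from a median of 2.63% to 7.87% and those in 3′ UTRs from 3.13% to 8.21%. The median difference was 0 at sites in introns, in noncoding exons and outside genes.

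The later MidK2 libraries show where these shares went, at sites listed on all 4 days; each day is 1 library and the values are a description. Of the 32 genes that rose by at least 10 points, 31 were listed on all days. Their median share was 6.49% at day 18, 22.3% at day 22, 19.1% at day 29 and 5.59% at day 36. At day 36, 14 of the 31 were at or below their day 18 share, 12 were between the day 18 and day 22 shares and 5 were at or above the latter. The fall by day 36 was not limited to these genes. Over all usable sites of each library, the median site share was 3.57% at day 18 and 9% at day 22. It was 9.38% at day 29 and 2.26% at day 36, at sites that differ between libraries. The 31 genes were picked for their rise, and whether they fell more than other genes was not tested. Msn had 8.87%, 26.9%, 32.9% and 6.59% on the 4 days, Renbp 6.29%, 25.5%, 20% and 0.672%, and Maged1 4.77%, 16.5%, 16.2% and 1.52%. These 3 returned to or below the level of day 18. Uba1 had 4.44%, 15.5%, 19.1% and 22.2%, Dynlt3 22.2%, 43.1%, 54.2% and 52.1%, and Bgn 68.6%, 89.5%, 90.8% and 80.4%, so these stayed above it. Timp1 had 16.3%, 39.8%, 22.2% and 21.5%, and Maged2, at the site shown above, 2.70%, 62.5%, 54.5% and 3.85%. Pou3f4 had 89.7%, 60%, 82.6% and 70.0%. In MEF2, 27 of the 31 genes listed on all 4 days were listed, with a median share of 1.27%. For 23 of these 27 the MEF2 share lay below the day 18 share. The sites were not always the same, as Maged2 had 2 sites in MEF2 and 1 on the 4 days. Rnf128, not among the 31, had no reference read among 22 in MEF2.

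**Figure D5:**
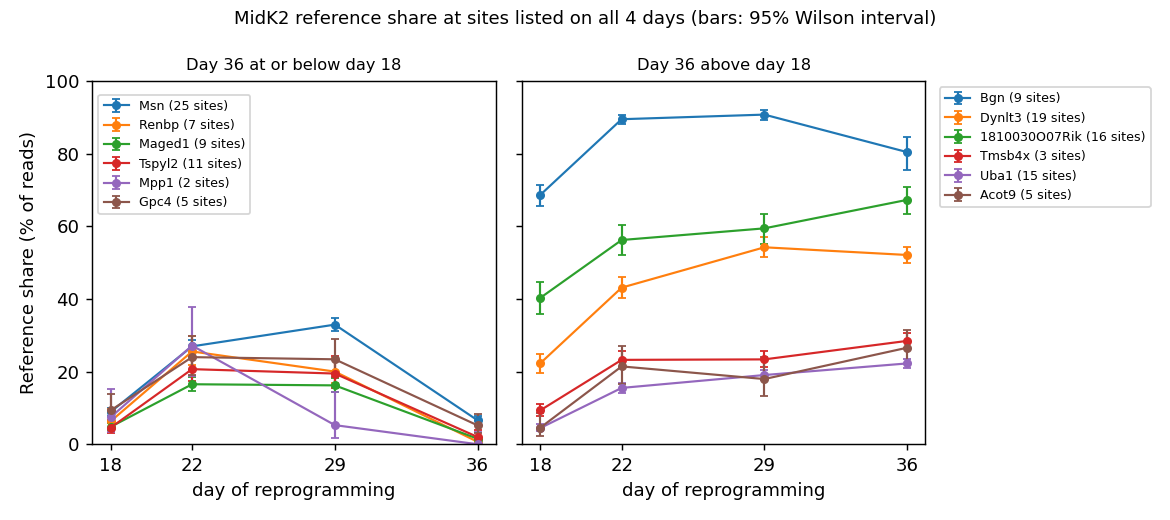
Reference share (% of reads, vertical axis) of 12 genes on days 18, 22, 29 and 36 of MidK2 (horizontal axis), at sites listed on all 4 days, with Wilson 95% intervals and 1 library per day. In the left panel are genes whose day 36 share was at or below that of day 18, such as Msn (8.87% and 6.59%), and in the right panel genes that stayed above it, such as Uba1 (4.44% and 22.2%).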

How the data were processed

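The deposited tables list X-chromosome variants against mm10 (per the submitters' processing notes). The authors made them with CLC Genomics Workbench and its Basic Variant Call, per the series' design text; aligner and caller settings were not stated. Columns used, per the file headers, were the deposited counts of variant reads and of covering reads, and the percent of variant reads, none normalized. The lowest listed count was 2, coverage 10 and percent 5, so all-reference positions are missing. Single-base variants with at least 20 covering reads in both tables were kept. Where a position had more than 1 variant, that with most reads stayed, which dropped 9 and 7 alleles. Sept6, date-converted in the day 18 table, was renamed (31 shared sites). Positions were annotated from GENCODE M21, whose base equalled the listed reference base at 942 of 942 coding sites. The reference share is 100 minus 100 times count over coverage, summed per gene. Fisher's exact tests used scipy 1.17.1 and Wilson intervals statsmodels 0.14.6, tested on simulated data; difference intervals are Newcombe's. Each group has 1 library, so p-values measure counting error. The genes named are those called, the falls past the test, the 10 of highest coverage not called, and the best-covered list members; those of 10 to 20 points were added after their values were seen. The comparison, members and lists were chosen with earlier results of these data known. Alternatives were other coverage minimums, site choices, size limits and name handling; leaving out Bgn and leaving out genes of 1 site were added after seeing the data.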

Additional observations from a re-analysis of the deposited data

How the results depend on the processing

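The 7 called genes of 302 became 13 of 390 with at least 10 reads per site, 2 of 168 with at least 50 (Timp1 and Renbp), 33 at a limit of 10 points, 3 at 30 points and 4 of 259 without genes of 1 site. The 118 rises of any size became 68 with at least 50 reads and 31 from the best-covered site per gene, which uses fewer reads. Biallelic genes numbered 23 at day 18 and 65 at day 22 with at least 50 reads, 22 and 36 at a minor share of 20%, and 20 and 88 of 191 genes at sites mostly variant in MEF2. The median difference of 3.41 points was 3.05 with at least 10 reads, 3.40 with at least 50, 5.51 at sites mostly variant in MEF2, 3.45 as the median over sites, 3.30 without genes of 1 site and 3.38 without Bgn. Gpc3 reversed to 6.78 points at its best-covered site and to 1.79 as the median over sites, and Dynlt3 reversed to -0.796 at its best-covered site, which is 1 of its mostly-reference sites. Calls were also lost for Zfp275 (18.5 points with at least 10 reads), Bgn (19.3 with at least 50 reads and 19.0 as the median over sites), Mpp1 (adjusted p = 0.0525 at the best-covered site by Fisher's exact test) and Pou3f4 (0.110 there and 0.0545 with sites 200 bases apart). Of 367 single-gene values under the alternatives, 348 kept their side of the threshold and were not counted as reversed. A reversal was counted only for genes past the test in the main comparison. Rlim, not past it, went from -0.649 points to 1.51 at sites mostly variant in MEF2 without being counted. At the median site coverage of 43 and 46 reads, single sites show only large differences. No paired analysis was possible because each day has 1 library and no replicate was left out.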
